A study of Mus musculus with 12 samples.

Results

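The 10 genes described here build, stabilise, cut or use the microtubules of the cell, or tie them to other filaments. They are the alpha-tubulin gene Tuba4a, the microtubule-binding protein genes Map7, Map2 and Camsap2, the severing enzyme gene Katna1, the kinesin genes Kif1a, Kif21b and Kifap3, the dynactin gene Actr1b and the cytolinker gene Dst. They were chosen by symbol, as the rows of the deposited count table whose Entrez Gene identifier maps to these names. All 10 were found among the 2398 genes of the table, and all 10 passed the filter on low counts that left 1484 genes to test.

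RNA was sequenced from oligodendrocytes sorted from mouse brain as cells positive for the Ndrg1-EGFP reporter, which marks myelinating oligodendrocytes, and negative for propidium iodide, which stains dead cells. Mice were of the C57BL/6 strain, and their age is given as postnatal day 60 in one label and as 8 weeks in another. The KO group had the genotype CnpCre/+;Lmnafl/fl and the WT group the genotype Cnp+/+;Lmnafl/fl. Both groups therefore carried the reporter and floxed Lmna, the gene of lamins A and C. Cre was expressed from Cnp, a gene of the oligodendrocyte lineage, so KO mice also had a Cnp allele replaced by Cre and a single intact copy. Recombination of Lmna, the presence of Cre and the loss of a Cnp copy cannot be told apart in this design. There were 3 biological replicates of each genotype, with 2 libraries of each that were summed here.

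Microtubules are hollow filaments of alpha- and beta-tubulin with a fast-growing plus end and a more stable minus end. In oligodendrocytes they run from the cell body through the processes into the myelin sheath and carry vesicles, organelles and messenger RNA, among them the RNA of myelin basic protein. Kinesins mostly walk towards plus ends and cytoplasmic dynein with its dynactin cofactor towards minus ends. The protein encoded by Cnp is itself known to bind tubulin.

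The 2226 genes of the table with a RefSeq symbol lie on chromosome 1 or in the first 111.3 Mb of chromosome 10. Most tubulin genes, and Lmna and Cnp themselves, were not analysed here, so recombination of Lmna was not checked. Counts over the genes of the table ranged from 3694551 to 6093336 per replicate. CPM is the unit of level used throughout. It divides each count by the TMM-adjusted total of its replicate over the genes tested, and multiplies it by a constant. Adamts4 and Nfasc, the mature oligodendrocyte markers in the table, summed to 14783 to 17097 CPM in KO and 10321 to 11902 CPM in WT. The other 18 genes of that marker list were not analysed here. Lists of markers of other cells summed to 283 to 428 CPM in KO and 283 to 575 CPM in WT for 15 neuronal genes, to 484 to 1095 CPM in KO and 356 to 799 CPM in WT for 3 astrocyte genes, and to 47.0 to 242 CPM in KO and 41.5 to 85.5 CPM in WT for 2 genes of microglia and macrophages. The 11 genes of ciliated cells summed to 187 to 224 CPM in KO and 193 to 239.8 CPM in WT, and 5 endothelial and mural genes to 250.4 to 639 CPM in KO and 83.6 to 475 CPM in WT. The 2 progenitor genes summed to 12.2 to 95.6 CPM in KO and 0.497 to 36.6 CPM in WT, and the 9 genes of dividing cells to 232 to 325 CPM in KO and 241 to 279 CPM in WT. The neuronal genes Cntnap5a and Cntnap5b had no count in any replicate. Fewer cells of a type and less RNA per cell cannot be told apart in these bulk samples.

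Stretches before the annotated starts of 2 members are shown, Kif1a because its genotypes separated most clearly and Actr1b because it varied least over the 6 replicates. The RefSeq promoter table matched 8 of the 10 members, all but Kif21b and Katna1. Both stretches run from 250 to 171 bases before a RefSeq start on the minus strand of GRCm38.p6 and lie outside the RefSeq gene. Each of these starts lies inside its gene, so the gene's outer end, 93102039 for Kif1a and 36710017 for Actr1b, is nearer to the stretch. Capitals mark CpG dinucleotides.
Kif1a, chr1:93102045-93102124: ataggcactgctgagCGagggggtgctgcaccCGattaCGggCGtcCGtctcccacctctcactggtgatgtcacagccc
Actr1b, chr1:36710096-36710175: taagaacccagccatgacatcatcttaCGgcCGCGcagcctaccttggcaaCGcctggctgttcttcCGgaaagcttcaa
Each stretch holds 5 CpG, and 80.5% of 32851 stretches at the same place before mouse starts hold fewer. Kif1a has another RefSeq start further inside the gene, whose stretch from 93082651 to 93082730 holds 0 CpG and is not shown. Neither stretch contains a GC box, a CCAAT box or a TATA box on either strand. The bases nearer the starts were not searched, so boxes there would not be seen. The letters of the GC box, GGGCGG, are in 8.27% of those stretches. The CCAAT letters are in 10.9% of them. The letters of the TATA box searched for, TATAAA, are in 4.33% of them.

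Level, compared between genes per kb of the longest annotated transcript, set Map7 and Kif1a apart from the other 8 members. Map7 averaged 1219 ± 115 CPM per kb in KO and 1271 ± 236 CPM per kb in WT (SD, n = 3 each). Kif1a averaged 945 ± 28.1 CPM per kb in KO and 767 ± 59.1 CPM per kb in WT. These levels lay above those of 96.0% and 93.4% of the tested genes of known length. Actr1b with 370.4 CPM per kb over all 6 replicates, Kifap3 with 278, Katna1 with 189 and Dst with 81.2 followed. From Map7 down to Dst each member's lowest replicate lay above the highest replicate of the next.

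The remaining members formed a group at lower levels. Camsap2 averaged 42.0 CPM per kb, Map2 40.4, Tuba4a 37.1 and Kif21b 29.3, and the ranges of neighbours in this order overlapped. Dst has the longest transcript of the members, 23279 bases, and stood lower in the order per kb than by CPM. With merged exons as the length, Kif1a at 753 CPM per kb stood above Map7 at 667. Actr1b at 281 then stood close to Kifap3 at 278, and Map2 at 15.4 was the lowest of the members. The order of the members and the gaps between them therefore depend in part on the length chosen.

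**Figure D1:**
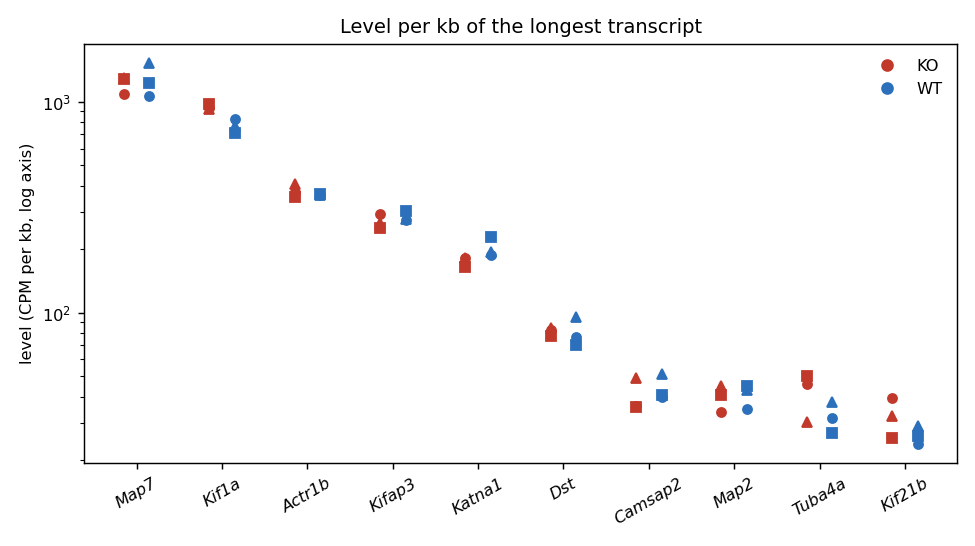
Level of each member in CPM per kb of its longest transcript, on a log axis, with 1 point per replicate (circle, square and triangle for replicates 1, 2 and 3) and KO left of WT. Map7 and Kif1a stand highest, and the ranges of Camsap2, Map2, Tuba4a and Kif21b overlap.

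The comparison of KO with WT asked whether transcripts of the microtubule system differ between the genotypes. No member passed the threshold of edgeR's quasi-likelihood test at a Benjamini-Hochberg adjusted p under 0.05, where 0 of the 1484 genes tested were called (0%). At an unadjusted p under 0.05 edgeR had 59 genes (3.98%), of which 40 were higher in KO (2.70%), and 1 of these was a member, Kif1a. DESeq2 called 7 genes (0.472%), none of them a member, and limma-voom called 0. Of the 10 members, 5 had a log2 fold change above 0, against 49.5% of all genes tested. The median was -0.013 over the members and -0.0064 over all genes tested. Replicates of the genotypes did not overlap for 2 members, Kif1a and Katna1, where 126 of the tested genes (8.49%) had no overlap, 4.45% with KO above WT as for Kif1a and 4.04% with KO below WT as for Katna1. An exact two-sided permutation test of 3 replicates against 3 cannot give a p under 0.1, so the tests rest on the fit that shares the spread over genes.

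**Figure D2:**
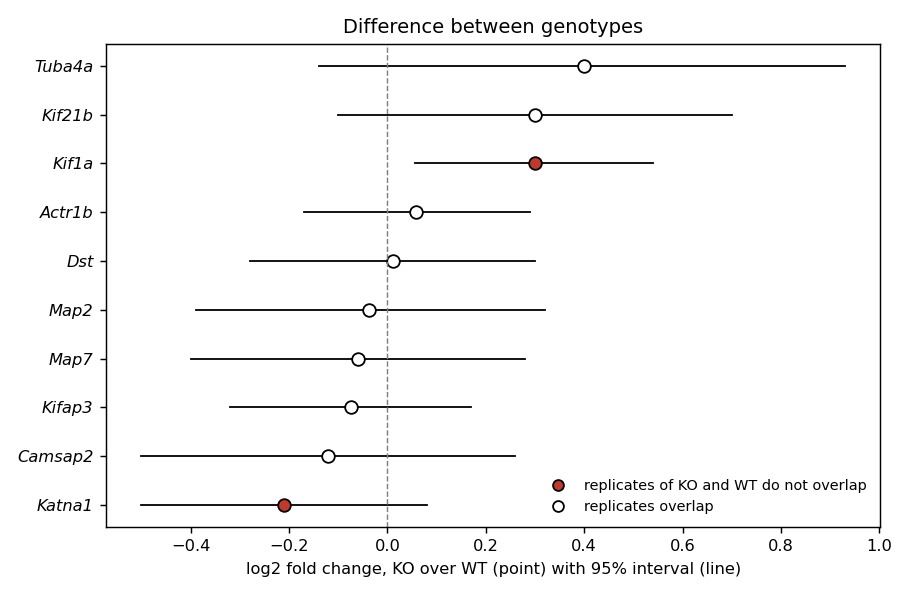
Log2 fold change of each member, KO over WT, from the edgeR fit (point) with its 95% interval (line). Filled points mark Kif1a and Katna1, whose KO and WT replicates do not overlap, and only the interval of Kif1a, from 0.057 to 0.54, lies on one side of 0.

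Kif1a encodes a kinesin-3 motor, known in neurons for carrying precursors of synaptic vesicles and dense-core vesicles along axons. It lies on chromosome 1 from 93015455 to 93102039 in mm10, on the minus strand, and ranked 24 of the genes in the table by mean CPM. Kif1a stood at 7709, 8002 and 7547 CPM in KO replicates 1, 2 and 3, against 6784, 5814 and 6292 CPM in WT replicates 1, 2 and 3. Every KO replicate lay above every WT replicate, and the nearest replicates of the groups were 763 CPM apart, less than the 969.7 CPM between the highest and lowest WT replicates. Its log2 fold change was 0.30 ± 0.11 (SE), a fold of 1.23 with a 95% interval from 1.04 to 1.46, with an edgeR adjusted p of 0.927. In DESeq2 the adjusted p was 0.292. Adamts4 and Nfasc stood higher in all KO replicates as well. Adamts4 averaged 9388 ± 394 CPM in KO and 6582 ± 489 CPM in WT (SD, n = 3 each), and Nfasc averaged 6434 ± 845 CPM in KO and 4788 ± 578 CPM in WT. The part of these markers in the Kif1a difference was not tested.

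Kif1a is also a gene of neurons, so the list of neuronal markers is given beside it. Of the 25 genes of this list, 15 were in the table, and the others were not analysed here. The list summed to 306, 428 and 283 CPM in KO, against 283, 368 and 575 CPM in WT, and the groups overlapped. Of its 8 tested genes, 4 had a log2 fold change above 0 and 4 below, from -2.39 to 0.70 with a median of 0.17, and edgeR called 0 of them. Its 2 genes of highest CPM were Scg2 and Grik2. Scg2, a granin of secretory granules, stood at 6.84, 36.7 and 5.38 CPM in KO, against 2.66, 31.1 and 226 CPM in WT. Grik2, a kainate receptor subunit and the largest part of each sum, averaged 239.6 ± 19.2 CPM in KO and 242 ± 26.7 CPM in WT (SD, n = 3 each). The part of neuronal RNA in the Kif1a and Map2 values was not tested.

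Kif21b encodes a kinesin-4 motor that limits microtubule growth and lies on chromosome 1 from 136131390 to 136178001 in mm10. It stood at 365, 234 and 299.8 CPM in KO, against 221, 240.5 and 269 CPM in WT. KO replicate 1 was the highest and KO replicate 2 lay within the WT range, so the groups overlapped. The log2 fold change was 0.30 ± 0.18 (SE), with a 95% interval from -0.10 to 0.70 and an edgeR adjusted p of 0.994. Without KO replicate 1 it was 0.13, and without KO replicate 2 it was 0.45.

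Kifap3 encodes KAP3, the non-motor subunit that joins the kinesin-2 motor to its cargo, and lies on chromosome 1 from 163762138 to 163917107. It stood at 1179, 1016 and 1065 CPM in KO, against 1101, 1221 and 1110.3 CPM in WT. The groups overlapped, and the log2 fold change was -0.075 ± 0.11 (SE), with a 95% interval from -0.32 to 0.17. That interval leaves a decrease to a fold of 0.803 or an increase to 1.12 within the measured error. Without KO replicate 1 the log2 fold change was -0.14, and without WT replicate 2 it was -0.017.

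Actr1b encodes beta-centractin, an actin-related protein of the filament at the core of dynactin, and lies on chromosome 1 from 36698114 to 36710017. It stood at 1208, 1145 and 1328 CPM in KO, against 1176, 1191 and 1169.9 CPM in WT. The WT replicates lay within 21.2 CPM of each other and inside the KO range. Over the 6 replicates its coefficient of variation was 5.36%, the lowest of the 10 members. The log2 fold change was 0.058 ± 0.10 (SE), with a 95% interval from -0.17 to 0.29.

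Dst encodes dystonin, a giant spectraplakin that links microtubules with actin and intermediate filaments. Mice that lack neuronal dystonin develop the movement disorder dystonia musculorum. The gene lies on chromosome 1 from 33907888 to 34308662 and has neuronal, muscle and epithelial forms, which a single count per gene does not separate. Dst stood at 1917, 1813 and 1959.7 CPM in KO, against 1788, 1643 and 2215 CPM in WT. All 3 KO replicates fell inside the WT range. The log2 fold change was 0.011 ± 0.13 (SE), a fold of 1.01 with a 95% interval from 0.824 to 1.23. It turned negative without scaling factors, at -0.022, and in 3 of the 6 fits that left out a replicate.

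**Figure D3:**
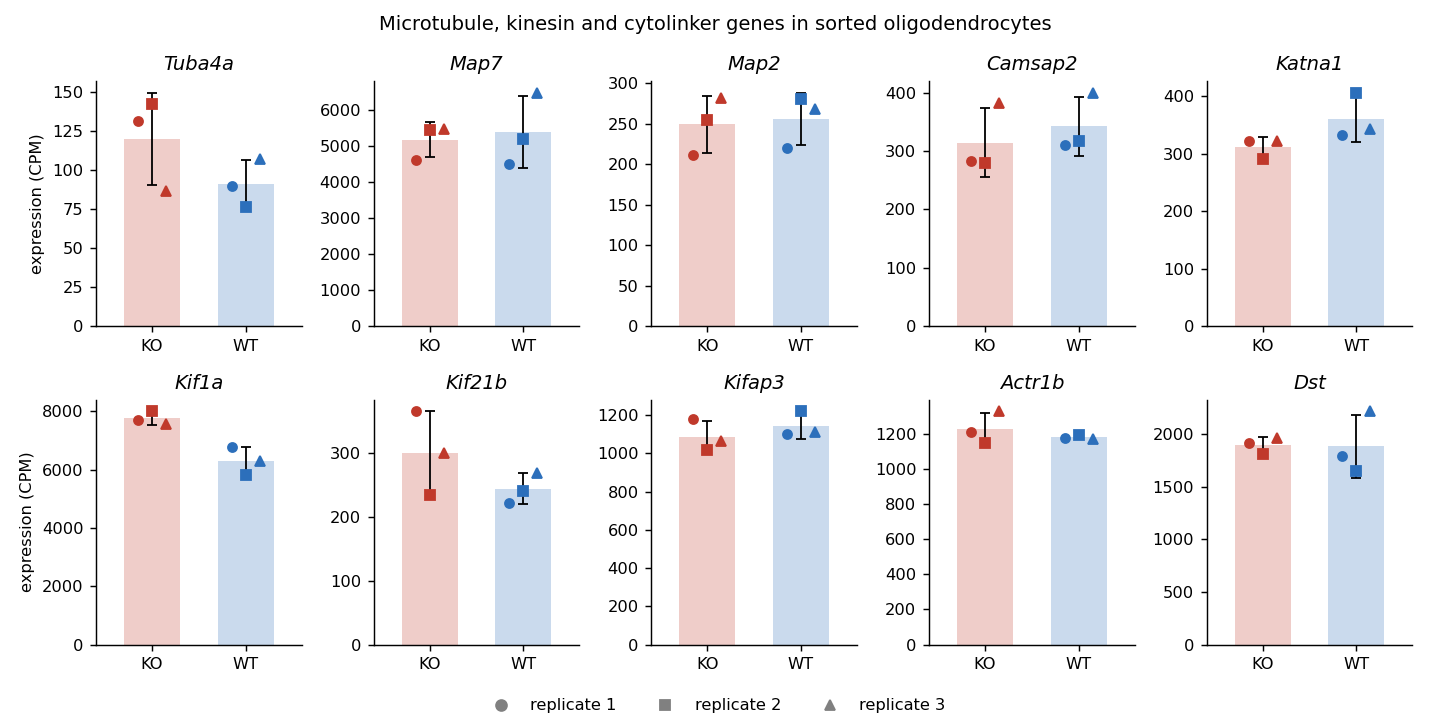
Expression of the 10 members in CPM in KO (left) and WT (right). Bars are means, error bars SD (n = 3 each) and points the replicates; the Kif1a points of KO lie between 7547 and 8002, all above the WT points, and the Katna1 points of KO lie between 291 and 322, all below.

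Katna1 encodes the ATPase subunit of katanin, which cuts microtubules along their length, and lies on chromosome 10 from 7725990 to 7763150. It stood at 322, 291 and 322 CPM in KO, against 332, 406 and 342 CPM in WT. Every KO replicate lay below every WT replicate, the nearest 10.2 CPM apart. The log2 fold change was -0.21 ± 0.13 (SE), a fold of 0.865 with a 95% interval from 0.708 to 1.06, with an edgeR adjusted p of 0.994. Without WT replicate 2, the highest, it was -0.11.

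Tuba4a encodes an alpha-tubulin isotype and was the only alpha- or beta-tubulin gene of the table. It lies on chromosome 1 from 75214972 to 75221261. Tuba4a stood at 131, 142 and 86.3 CPM in KO, against 89.5, 76.3 and 107 CPM in WT. KO replicates 1 and 2 were above all WT replicates and KO replicate 3 was among them. Its log2 fold change of 0.40 ± 0.24 (SE) was the highest of the members, with a 95% interval from -0.14 to 0.93 and an edgeR adjusted p of 0.994. Without KO replicate 3 it was 0.58, and without KO replicate 2 it was 0.26. Exons of Tuba4a share 1379 of 3701 bases with exons of Stk16, a kinase gene on the opposite strand. Stk16 averaged 738 ± 22.2 CPM in KO and 803 ± 47.2 CPM in WT (SD, n = 3 each), with a log2 fold change of -0.12 ± 0.10 (SE). It is not stated whether reads were assigned by strand, and the value of Tuba4a is uncertain for that reason.

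Map7, also called ensconsin, encodes a protein that stabilises microtubules and recruits kinesin-1 to them, and lies on chromosome 10 from 20148920 to 20281590. It stood at 4619.6, 5449 and 5481 CPM in KO, against 4509.7, 5211 and 6488 CPM in WT. WT replicates 1 and 3 lay on either side of all KO replicates. The log2 fold change was -0.06 ± 0.15 (SE), with a 95% interval from -0.40 to 0.28. Without WT replicate 3 it was 0.10, and without WT replicate 1 it was -0.18.

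Map2 encodes the microtubule-associated protein known for spacing and stabilising microtubules in neuronal dendrites. The gene lies on chromosome 1 from 66175202 to 66442583. It stood at 212, 255 and 282 CPM in KO, against 219.8, 281 and 268 CPM in WT. The groups overlapped almost fully, and the log2 fold change was -0.037 ± 0.16 (SE) with a 95% interval from -0.39 to 0.32.

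Camsap2 encodes a protein that caps and stabilises minus ends of microtubules away from the centrosome, and lies on chromosome 1 from 136268123 to 136346117. It stood at 282, 279 and 382 CPM in KO, against 309.7, 317 and 399.8 CPM in WT. Replicate 3 was the highest in both groups, which overlapped. The log2 fold change was -0.12 ± 0.17 (SE), with a 95% interval from -0.50 to 0.26.

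The coefficient of variation between replicates exceeded the highest counting error of the gene in both genotypes for 9 of the 10 members. The exception was Actr1b, with 7.54% in KO and 0.93% in WT, where counting alone gives up to 1.54%. The lowest count of a member in a replicate was 307 reads, for Tuba4a, where counting alone gives a coefficient of variation of 5.71%, against 24.5% over the KO replicates and 16.9% over the WT replicates. For Kif1a counting gives at most 0.654%, against 2.98% in KO and 7.70% in WT. The SE of the log2 fold change lay between 0.10 and 0.24 for the members, with a median of 0.21 over all genes tested.

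Deviations of single replicates ran across several members. WT replicate 3 was the highest of the 6 for Map7, Camsap2 and Dst, at 0.30, 0.30 and 0.24 above the mean on the log2(CPM + 1) scale. KO replicate 1 was the lowest for Map2, at -0.25, and the highest for Kif21b, at 0.45. KO replicate 2 was the lowest for Katna1 and Kifap3, at -0.20 and -0.13, and the highest for Tuba4a, at 0.46. WT replicate 2 was the highest for Katna1 and Kifap3, at 0.28 and 0.13. It was the lowest for Tuba4a, Kif1a and Dst, at -0.42, -0.26 and -0.20. Each deviation is from the mean of all 6 replicates and so includes part of any difference between genotypes. On that measure most were larger in size than the log2 fold change of the same gene between genotypes. The comparison therefore does not set the spread within a genotype against the difference between genotypes. The exceptions were KO replicate 2 for Katna1 and WT replicate 2 for Kif1a. The log2 fold change was -0.21 for Katna1 and 0.30 for Kif1a.

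**Figure D4:**
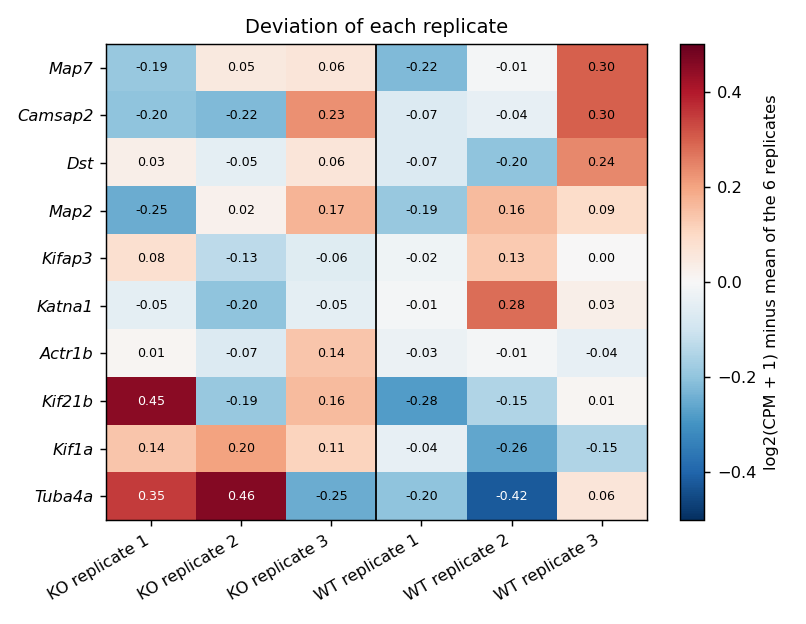
Deviation of each replicate from the mean of all 6 replicates, as log2(CPM + 1), for each member, with KO on the left and WT on the right of the line. The row of Kif1a is positive in all KO replicates and negative in all WT replicates, while WT replicate 3 is high for Map7, Camsap2 and Dst.

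Pearson's r of log2(CPM + 1) was taken over the 6 replicates without regard to genotype, so a difference between genotypes enters it. For the 3 most abundant members, the genes of most similar pattern were those of highest r. Those of Kif1a were Spock2 at r = 0.977, Gna15 at 0.970 and Adamts4 at 0.965. Those of Map7 were Per2 at 0.986, Stk36 at 0.970 and Ccnt2 at 0.969. Those of Dst were Med23 at 0.963, Gzmm at 0.957 and Ttll4 at 0.950. Spock2, Gna15, Per2 and Gzmm averaged 21.3, 8.80, 12.2 and 8.11 CPM, far below the members they follow. With 6 replicates and 1483 genes to choose from, 13 genes had an r above 0.9 with Kif1a, 29 with Map7 and 15 with Dst, and all values share the same libraries.

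Further genes of the microtubule system were read from 8 lists, which held 30 genes of the table besides the members. Of these, 28 were tested, and edgeR called 0 higher and 0 lower in KO. Their median log2 fold change was 0.050, with 17 above 0 and 11 below, against 734 above 0 among the 1484 genes tested. At an unadjusted p under 0.05 there was 1, Mark1. Mark1 encodes a kinase that phosphorylates microtubule-associated proteins and so loosens their hold. It stood at 96.3, 41.0 and 57.1 CPM in KO, against 39.3, 39.0 and 29.7 CPM in WT. All KO replicates lay above the WT replicates, KO replicate 2 by 1.67 CPM, and the log2 fold change was 0.84 ± 0.35 (SE) with an edgeR adjusted p of 0.994.

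Among kinesins and their adaptors, 10 genes were in the table and 8 were tested, and their median log2 fold change was 0.062. Counts and medians of single lists, here and below, include the members. Kifbp encodes the kinesin-binding protein, which holds several kinesins off the microtubule, and averaged 4660.2 ± 192 CPM in KO and 4501 ± 423 CPM in WT (SD, n = 3 each). Arl8a encodes a small GTPase that couples lysosomes to kinesins, and averaged 3528 ± 522 CPM in KO and 3878 ± 817 CPM in WT. Both overlapped between genotypes. The kinesin genes Kif14 and Kif26b had 9 and 55 counts in all and were not tested.

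Tubulins were represented by Tuba4a and Tube1, epsilon-tubulin of the centriole, which averaged 35.9 ± 5.58 CPM in KO and 34.7 ± 3.95 CPM in WT (SD, n = 3 each). Of 10 microtubule-binding genes, Map7, Map2 and Camsap2 included, all were tested and 7 had a log2 fold change above 0. The median was 0.12. Cep170, of the centrosome and microtubules, averaged 971 ± 44.4 CPM in KO and 905 ± 140.2 CPM in WT. Nav1, a plus-end tracking protein, averaged 698 ± 190.4 CPM in KO and 633 ± 174 CPM in WT. The 4 genes of severing and tubulin modification, Katna1 included, had a median of 0.25. Of their log2 fold changes 2 were above 0 and 2 below, from -0.21 to 0.84. Among them Ttll4, a tubulin glutamylase, averaged 44.0 ± 3.45 CPM in KO and 50.2 ± 31.1 CPM in WT. Actr1b was the only gene of the dynein and dynactin list in the table.

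Cytolinkers other than Dst were Syne1 and Utrn. Syne1 encodes nesprin-1, which spans the outer nuclear membrane and is linked through SUN proteins to the lamina that lamins A and C form. It averaged 133 ± 20.2 CPM in KO and 139 ± 11.2 CPM in WT (SD, n = 3 each), with a log2 fold change of -0.066 ± 0.17 (SE) and a 95% interval from -0.45 to 0.32. Utrn, utrophin, averaged 8.77 ± 4.64 CPM in KO and 6.50 ± 1.75 CPM in WT.

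Of the 8 tested genes of the centrosome and of nucleation, 5 had a log2 fold change below 0, and the median was -0.19. Nek7, a kinase of spindle assembly, stood at 957, 858 and 852 CPM in KO, against 727, 844 and 836 CPM in WT, with all KO replicates above those of WT and an edgeR adjusted p of 0.994. Pcnt, pericentrin, averaged 231 ± 9.20 CPM in KO and 281 ± 54.0 CPM in WT (SD, n = 3 each). Of the septins, which assemble along microtubules and in myelin, Septin2 stood at 1422, 1472 and 1485 CPM in KO, against 2101, 1367 and 1312 CPM in WT. WT replicate 1 alone stood apart there. Septin10 averaged 261 ± 18.1 CPM in KO and 270.2 ± 101 CPM in WT.

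**Figure D5:**
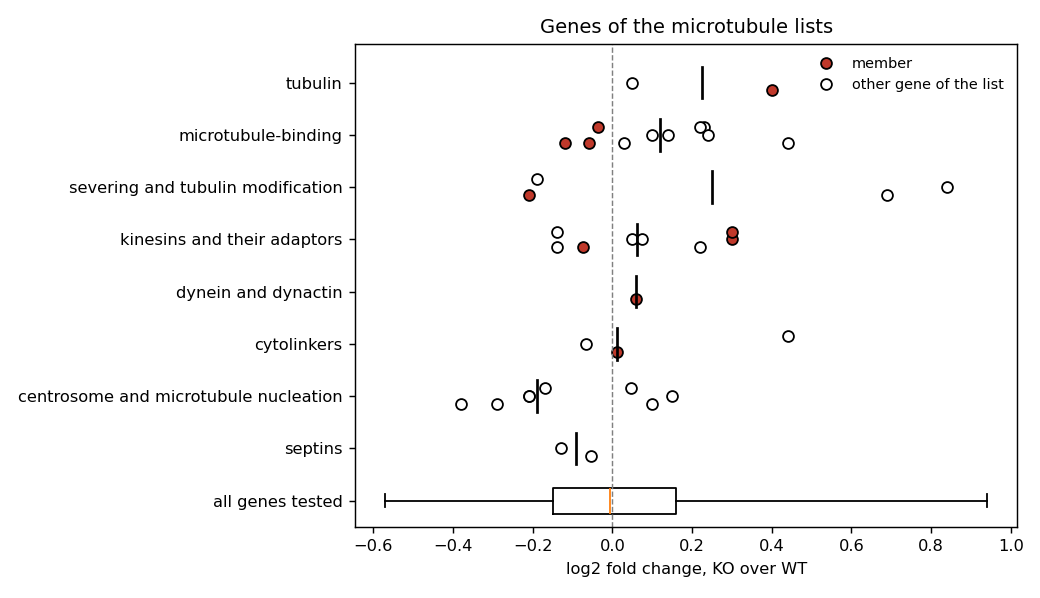
Log2 fold change, KO over WT, of the tested genes of 8 microtubule lists (points; filled for the 10 members; vertical bars are list medians), above a box plot of all genes tested (box, quartiles; whiskers, percentiles 5 and 95). List medians lie between -0.19 and 0.25.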

How the data were processed

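The 12 libraries, 2 for each of 3 KO and 3 WT biological replicates, were mapped to genotype and replicate by their titles. The authors deposited unscaled read counts, 1 column per library. The submitters' processing notes name HISAT2, SAMtools 1.4.1 and featureCounts, besides CASAVA 1.8.2, FastQC and fastp, and DESeq2 1.38.1, with build mm10. Parameters, annotation and strand setting are not given there. Of 2398 complete lines (1 that stops early was left out), 2226 have an identifier with a symbol in the GRCm38 table of RefSeq, and the other 172 held 0.552% of the counts. The genes were taken from part of the genome, so totals are not the depth of a library.

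The 2 libraries of a replicate differed by 1.00 to 1.06 in chi-square per degree of freedom over genes with at least 20 counts (p from 0.0594 to 0.486), and by a chi-square of 8438 on 8091 degrees of freedom over all 6 pairs (p = 0.00353). They were summed and counted as 1 sample because both come from that replicate. KO was compared with WT over the whole table with edgeR 4.0.16 in R 4.3.3, with the quasi-likelihood test (robust), TMM factors from 0.951 to 1.05 and filterByExpr. P-values were adjusted by Benjamini-Hochberg, with a threshold of 0.05. Each SE was taken as the size of the log2 fold change over the square root of F, and 95% intervals use the fit's degrees of freedom. Lengths and shared exons come from GENCODE M21. Counting error is that of a Poisson count and covers reads only. The fits were tested on simulated counts. The changes planted in them were larger than any fold change of the members, so changes as small as the members' were not tried there. Alternatives were other size factors and filters, DESeq2 1.42.0, limma-voom in limma 3.58.1, single libraries, a replicate block and leaving out each replicate.

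The members and lists were chosen with earlier results of these data known. Besides the members, the text names called genes of each microtubule list or else its 2 other genes of highest CPM. It also names the 2 genes of highest CPM of each of the mature oligodendrocyte and neuronal marker lists. For the other marker lists only sums are given. Named too are the 3 genes most like each of the 3 most abundant members. Kif14, Kif26b, Stk16, Cntnap5a and Cntnap5b were named after their values were seen. The labels give biological replicates without saying whether each came from 1 animal or from a pool.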

Additional observations from a re-analysis of the deposited data

How the results depend on the processing

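No member was called under any setting run, and 0 genes of the table were called with either other scaling, either other filter, limma-voom, single libraries and in each of the 6 fits without a replicate (34 to 86 genes at an unadjusted p under 0.05), against 6 called higher and 1 lower with DESeq2. The cause was not tested. Kif1a kept its direction in all 15 alternatives, with log2 fold changes from 0.26 to 0.36 and adjusted p from 0.292 to 1, and Tuba4a, Kif21b, Kifap3 and Katna1 also kept theirs. The sign changed without scaling factors for Dst (-0.022), and with the first library of each replicate for Map2 (0.021). The cause was not tested. Leaving out each replicate gave a range from -0.07 to 0.15 for Dst, from -0.14 to 0.065 for Map2, from -0.18 to 0.10 for Map7, from -0.29 to 0.014 for Camsap2 and from -0.0046 to 0.11 for Actr1b. These signs are not fixed by 3 replicates a group. Merged exons as the length, longer by construction, moved the level per kb to 45.9 for Dst, 15.4 for Map2, 667 for Map7, 22.3 for Kif21b, 153 for Katna1 and 281 for Actr1b. For every gene tested, the deviation of each replicate's log CPM from its genotype mean was taken. The correlations of these deviations across genes between KO and WT replicates of the same number were -0.0054, -0.29 and 0.14. The numbers were therefore not taken to pair the samples. With the replicate block 0 genes were called, and the log2 fold change of Kif1a was 0.30. A count per gene does not resolve isoforms, so a shift between forms of Dst, Map2 or Kif1a could not be seen.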
